A study of Rattus norvegicus with 18 samples.

Results

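Expression of 9 genes of the endocannabinoid system was examined in the PFC of rat pups. The members were taken by symbol: the cannabinoid receptor gene *Cnr1*, the receptor-interacting protein gene *Cnrip1*, the synthesis genes *Dagla*, *Daglb* and *Napepld*, and the hydrolase genes *Mgll*, *Abhd6*, *Abhd12* and *Faah*. Each of the 9 symbols matched 1 of the 32623 genes listed for each pup, and all 9 passed the filter on low counts, which left 15703 genes for the tests.

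RNA-seq was performed on 18 Sprague Dawley pups at P14, with 6 pups in each of 3 groups. Dams of the SAL group received saline by gavage. Dams of the PNO group received oxycodone (oxy) at 15 mg/kg/day from parturition on, and exposure of these pups was through milk only. For IUO, oxy began at 10 mg/kg/day, had reached 15 mg/kg/day when the dams were mated, and went on through gestation and nursing, so that placental exposure preceded exposure through milk. The labels give neither the litter nor the sex of a pup, and the p-values therefore measure the spread between these pups, some of which could be littermates.

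Endocannabinoids are lipid messengers made on demand in the membrane of the postsynaptic neuron. They travel backwards across the synapse to the CB1 receptor, the product of *Cnr1*, which couples to inhibitory G proteins and lowers transmitter release. The main messenger in the brain, 2-arachidonoylglycerol (2-AG), is made by the diacylglycerol lipases (*Dagla*, *Daglb*) and broken down by monoacylglycerol lipase (*Mgll*) and, to a lesser extent, by the hydrolases of *Abhd6* and *Abhd12*. Anandamide, the other messenger, can be made by the phospholipase D of *Napepld* and is hydrolysed by fatty acid amide hydrolase (*Faah*). CB1 and the mu opioid receptor are both inhibitory G protein-coupled receptors of the cortex.

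Summed expected counts lay between 18381819 and 26084780 per pup. Markers of cortical excitatory neurons (6 of 6), interneurons (8 of 8) and astrocytes (6 of 6) were detected in every pup. Markers of the striatum, of myelin and of the choroid plexus varied widely between pups. The summed level of 8 striatal markers ran from 163 to 1576 CPM in SAL, from 218 to 1330 in PNO and from 407 to 1909 in IUO. The summed level of 6 myelin markers ran from 1660 to 9059 CPM in SAL, from 2812 to 14322 in PNO and from 2124 to 5438 in IUO, and that of 5 choroid plexus markers from 2.44 to 965 CPM over all pups. In bulk tissue, fewer cells of a type and less RNA per cell cannot be told apart.

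The level of each gene was first set beside the others in TPM, which is scaled to transcript length. *Cnrip1*, whose product binds the tail of the CB1 receptor, was the most abundant member in each group, with a mean of 229 ± 30.4 TPM (SD, n = 6) in SAL. *Abhd12*, a serine hydrolase of 2-AG and of lysophosphatidylserine, followed at 145 ± 6.73 TPM, and every SAL pup had less *Abhd12* than *Cnrip1*. Neither gene overlapped with the next one in the order in any group.

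The middle of the order was less distinct. In SAL, *Mgll* had 71.9 ± 31.6 TPM, *Cnr1* 57.8 ± 15.2, *Abhd6* 41.7 ± 5.17, *Dagla* 30.4 ± 5.84 and *Daglb* 25.0 ± 2.75. *Mgll* stood above *Cnr1* in 5 of 6 SAL pups, 3 of 6 PNO pups and 4 of 6 IUO pups, so that these neighbours did not differ beyond their spread. The ranges of *Cnr1* and *Abhd6* overlapped in SAL and PNO but not in IUO, and the same was true of *Dagla* and *Daglb*, whereas those of *Abhd6* and *Dagla* overlapped in each group in TPM and, in FPKM, only in IUO.

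The anandamide genes formed the low end. *Faah* had 12.2 ± 3.46 TPM and *Napepld* 3.03 ± 1.44 TPM in SAL, and neither overlapped with its neighbours in any group. *Napepld* rested on only 25 to 97 expected counts per pup, against 2758 to 6188 for *Cnr1*, and is the least precisely measured member. By mean TPM, each gene for 2-AG turnover was thus more abundant than either *Faah* or *Napepld* in every group.

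**Figure D1:**
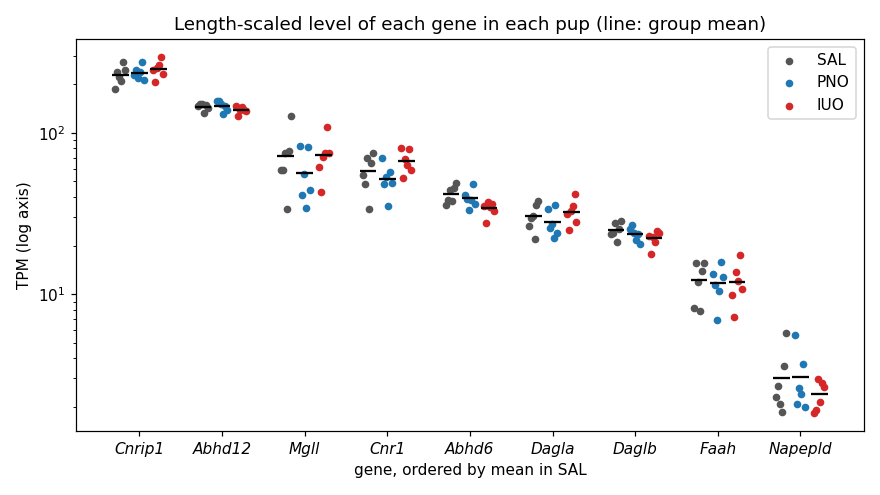
TPM of the 9 genes (log axis) in each of the 18 pups, coloured by group, with a line at each group mean. *Cnrip1* and *Abhd12* lie at the top, *Faah* and *Napepld* at the bottom, and *Mgll* and *Cnr1* overlap in the middle.

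Among the 3 hydrolases of 2-AG, the *Abhd12* transcript made up 57.0% ± 7.17 (SD, n = 6) of their summed TPM in SAL, *Mgll* 26.8% ± 7.80 and *Abhd6* 16.2% ± 1.31. The *Abhd6* share was 16.3% ± 1.83 in PNO and 13.9% ± 0.853 in IUO, where it ran from 12.7% to 15.1%. The IUO shares of *Abhd6* overlapped those of SAL, which ran from 14.9% to 18.5%. *Dagla* made up 54.6% ± 2.87 of the diacylglycerol lipase transcripts in SAL, 54.0% ± 4.14 in PNO and 59.1% ± 3.36 in IUO. These shares are descriptions of transcript levels and say nothing about enzyme activity.

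The members also differed in how far pups of the same group lay apart. The SD of log2 CPM within groups was 0.43 for *Mgll*, 0.40 for *Napepld* and 0.36 for *Faah*, against a median of 0.20 over the 11604 genes with a mean of at least 5 CPM. *Napepld*, with a mean of 2.06 CPM, is below that level, and counting error adds more to its spread. The SD was 0.15 for *Abhd6* and 0.13 for *Abhd12*, the steadiest of the 9. *Mgll* and *Abhd12*, which act on the same lipid, thus stood at opposite ends of the list.

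Promoter sequences are shown for 4 members on which the results turn: *Mgll* and *Abhd12*, the ends of that range, and *Abhd6* and *Cnrip1*, whose levels moved together between pups. RefSeq promoters (build GRCr8, 250 bases before the start of the gene and 50 after it) were matched by symbol for 7 of the 9 members. *Mgll* lies at chr4:122749186-122749485 on the plus strand, *Abhd12* at chr3:160179880-160180179 on the minus strand, *Abhd6* at chr15:19337144-19337443 on the minus strand and *Cnrip1* at chr14:95664262-95664561 on the plus strand. Capitals mark each match, on either strand, to 1 of 4 motifs whose letters follow the sequences, and no marked matches overlap.
Mgll: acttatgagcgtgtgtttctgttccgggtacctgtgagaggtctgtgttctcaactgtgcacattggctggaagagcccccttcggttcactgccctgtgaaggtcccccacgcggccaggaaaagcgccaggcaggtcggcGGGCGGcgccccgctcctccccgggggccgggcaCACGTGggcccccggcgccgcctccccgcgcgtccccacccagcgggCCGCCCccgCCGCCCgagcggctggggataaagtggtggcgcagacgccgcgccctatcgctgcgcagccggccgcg
Abhd12: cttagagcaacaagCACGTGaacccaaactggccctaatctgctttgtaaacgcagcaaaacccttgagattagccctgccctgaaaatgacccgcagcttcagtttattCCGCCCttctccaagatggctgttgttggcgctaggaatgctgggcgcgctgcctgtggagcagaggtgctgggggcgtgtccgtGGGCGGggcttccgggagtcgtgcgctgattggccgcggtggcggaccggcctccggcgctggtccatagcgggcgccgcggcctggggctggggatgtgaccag
Abhd6: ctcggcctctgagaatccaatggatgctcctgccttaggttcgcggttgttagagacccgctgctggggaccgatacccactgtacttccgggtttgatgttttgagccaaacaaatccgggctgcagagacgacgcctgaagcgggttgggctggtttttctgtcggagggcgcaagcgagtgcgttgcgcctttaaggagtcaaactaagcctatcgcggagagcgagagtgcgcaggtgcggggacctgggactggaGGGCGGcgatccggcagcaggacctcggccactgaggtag
Cnrip1: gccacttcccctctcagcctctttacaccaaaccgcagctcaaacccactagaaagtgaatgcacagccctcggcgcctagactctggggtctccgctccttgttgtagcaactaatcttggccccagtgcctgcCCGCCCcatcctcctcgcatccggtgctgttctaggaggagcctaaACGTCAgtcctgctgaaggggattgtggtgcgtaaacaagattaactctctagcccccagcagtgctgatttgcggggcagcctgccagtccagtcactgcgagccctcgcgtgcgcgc

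A GC box (GGGCGG) was present in 6 of the 7 promoters (16 matches in all, 8 of them in *Napepld*), and 33.1% of the 33469 promoters of this length in the table hold one. An E-box (CACGTG) was found in *Mgll* and *Abhd12*, against 6.42% of all promoters. The TATA box (TATAAA) occurred only in *Daglb* among the 7, against 14.2% of all promoters. The core of a cAMP response element (TGACGT) was found in *Daglb* and *Cnrip1*, against 7.94%. The *Mgll* promoter was 72.3% G and C and that of *Cnrip1* 59.3%, with a median of 51.7% over the table. A match is a description of the letters and not a site of binding.

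The exposed groups were then compared with SAL and with each other, as CPM (counts scaled to library size, here after TMM normalization), by edgeR's quasi-likelihood test with Benjamini-Hochberg adjustment over the 15703 genes. Genes with an adjusted p-value under 0.05 are referred to as called. None of the 9 members was called in any of the 3 comparisons by this test. The rate of calls over all genes was 0% for PNO versus SAL, 0% for IUO versus SAL and 0.0637% for IUO versus PNO, in which 10 genes were called.

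Without adjustment, the number of members with a p-value under 0.05 was 0 for PNO versus SAL, 1 for IUO versus SAL and 4 for IUO versus PNO. The matching rates over all genes were 4.5%, 6.88% and 15.3%. DESeq2 and limma-voom called 0 members in either comparison with SAL and 1 of 9 members, *Abhd6*, between IUO and PNO. DESeq2 called 0.00637% of all genes for PNO versus SAL, 0.312% for IUO versus SAL and 2.78% for IUO versus PNO, and limma-voom called 0%, 0.274% and 12.9%. No member had groups that did not overlap in CPM, a pattern seen in 0.108% of genes for PNO versus SAL, 0.745% for IUO versus SAL and 1.66% for IUO versus PNO. The comparisons share their groups (each group enters 2 of them), and the values of a gene in them are not independent.

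**Figure D2:**
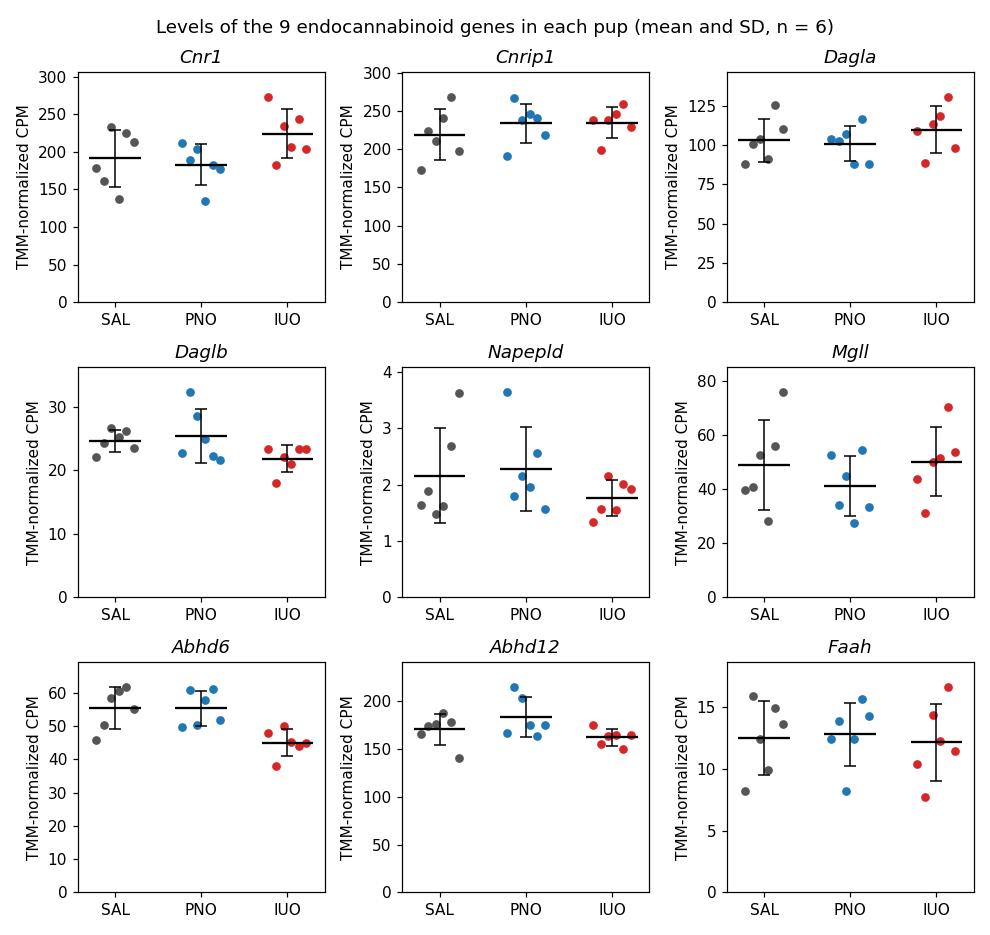
TMM-normalized CPM of each member in each pup of SAL, PNO and IUO, with the mean and SD (n = 6) in black; each axis starts at 0. *Abhd6* is lower in most IUO pups than in the other groups, and the groups overlap for each gene.

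*Cnr1* (ENSRNOG00000008223), the CB1 receptor gene, ran from 137 to 233 CPM in SAL (median 196), from 135 to 211 in PNO (median 186) and from 183 to 274 in IUO (median 220). The IUO pups lay mostly high, with 5 of 6 above the SAL median and 3 of 6 above the highest SAL pup. The log2 fold change was 0.23 for IUO versus SAL (standard error 0.13, 95% interval -0.05 to 0.51, adjusted p = 0.833 from edgeR) and -0.06 for PNO versus SAL (interval -0.35 to 0.22, adjusted p = 0.943). Between IUO and PNO it was 0.29 (standard error 0.13, unadjusted p = 0.0439, adjusted p = 0.314). That difference was not past the threshold. It was 0.23 with either the striatal or the myelin score as a covariate (unadjusted p = 0.121 and 0.194), and it lay between 0.22 and 0.37 under all alternatives run. For IUO versus SAL it was 0.15 without SAL replicate 4.

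*Cnrip1* (ENSRNOG00000005326) had a similar level throughout, with 219 ± 33.4 CPM (SD, n = 6) in SAL, 234 ± 25.8 in PNO and 235 ± 20.2 in IUO. Its log2 fold change was 0.09 for PNO versus SAL, 0.10 for IUO versus SAL and 0.01 for IUO versus PNO, with adjusted p-values of 0.914, 0.968 and 0.978. Each 95% interval of this gene lay within a change of -0.20 to 0.31 on the log2 scale. Receptor and receptor-interacting protein therefore showed no difference past the threshold, with the wider interval for the receptor.

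*Dagla* (ENSRNOG00000027264), the main 2-AG synthase at adult synapses, ran from 88.0 to 126 CPM in SAL (median 102), from 87.7 to 116 in PNO (median 103) and from 88.9 to 131 in IUO (median 111). The 3 ranges overlapped almost fully. Its log2 fold change was -0.03 for PNO versus SAL (interval -0.25 to 0.19), 0.09 for IUO versus SAL (interval -0.12 to 0.31) and 0.12 for IUO versus PNO (interval -0.09 to 0.34), with adjusted p-values of 0.963, 0.974 and 0.586.

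*Daglb* (ENSRNOG00000001079), the second diacylglycerol lipase, which is prominent in microglia, ran from 22.1 to 26.7 CPM in SAL (median 24.8), from 21.7 to 32.4 in PNO (median 23.8) and from 18.0 to 23.4 in IUO (median 22.7). All 6 IUO pups were below the SAL median and below the PNO median. The log2 fold change was -0.22 for IUO versus PNO (standard error 0.10, unadjusted p = 0.0409, adjusted p = 0.308), -0.18 for IUO versus SAL (adjusted p = 0.809) and 0.04 for PNO versus SAL (adjusted p = 0.948). The IUO versus PNO value was -0.14 without PNO replicate 2. Of the 6 microglia markers, 4 were higher and 2 lower in IUO than in PNO and 0 were called, with *Tmem119* the one that stood apart (log2 fold change -1.32, adjusted p = 0.0524, groups not overlapping), and their part in *Daglb* was not tested.

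*Napepld* (ENSRNOG00000011363) had 2.16 ± 0.838 CPM (SD, n = 6) in SAL, 2.28 ± 0.751 in PNO and 1.76 ± 0.318 in IUO. The highest pup had 3.63 CPM in SAL, 3.65 in PNO and 2.16 in IUO, and the lowest had 1.48, 1.56 and 1.34, so that the groups overlapped. Its log2 fold changes of 0.08, -0.29 and -0.37, for PNO versus SAL, IUO versus SAL and IUO versus PNO, had standard errors of 0.24 to 0.25 and adjusted p-values of 0.962, 0.926 and 0.487. The IUO versus SAL value was -0.0895 without SAL replicate 6, and the IUO versus PNO value was -0.19 without PNO replicate 1 and -0.73 with the myelin score as a covariate.

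*Mgll* (ENSRNOG00000014508), the main hydrolase of 2-AG in brain, ran from 28.3 to 76.2 CPM in SAL (median 46.9), from 27.3 to 54.6 in PNO (median 39.5) and from 31.4 to 70.5 in IUO (median 50.9). The spread between pups of 1 group was as wide as 2.69-fold, in SAL. The log2 fold change was -0.25 for PNO versus SAL (interval -0.73 to 0.23, adjusted p = 0.912), 0.04 for IUO versus SAL (interval -0.44 to 0.52, adjusted p = 0.996) and 0.29 for IUO versus PNO (interval -0.19 to 0.77, adjusted p = 0.560). These intervals are the widest among the 2-AG genes. The PNO versus SAL value was -0.0863 without SAL replicate 6, -0.16 without PNO replicate 4 and 0.0181 with the myelin score as a covariate. The IUO versus PNO value was 0.16 without IUO replicate 5, 0.51 with limma-voom and -0.14 with the myelin score.

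*Abhd6* (ENSRNOG00000008167), a postsynaptic membrane hydrolase that also associates with AMPA receptors, gave the smallest p-values of the 9 in both comparisons with IUO. It ran from 46.0 to 61.8 CPM in SAL (median 56.9), from 49.7 to 61.3 in PNO (median 54.9) and from 38.1 to 50.2 in IUO (median 45.1). All 6 IUO pups lay below the SAL median, 4 of them below the lowest SAL pup and 5 below the lowest PNO pup. The mean was 55.4 ± 6.22 CPM (SD, n = 6) in SAL, 55.3 ± 5.31 in PNO and 45.1 ± 4.10 in IUO, so that SAL and PNO had almost the same level.

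The log2 fold change of *Abhd6* was -0.30 for IUO versus SAL (standard error 0.09, 95% interval -0.48 to -0.12, unadjusted p = 0.00266) and -0.30 for IUO versus PNO (standard error 0.09, interval -0.48 to -0.12, unadjusted p = 0.00287). This is a ratio of 0.81 in both. The adjusted p-values from edgeR were 0.424 and 0.129, neither past the threshold. Between IUO and PNO the adjusted p-value was 0.0387 with DESeq2 and 0.0286 with limma-voom, where *Abhd6* was called among 436 and 2028 genes. For IUO versus SAL, the corresponding adjusted p-values were 0.112 and 0.119, and *Abhd6* was not called. The weights that limma-voom gave the pups were uneven, as high as 4.02 for IUO replicate 4 and as low as 0.31 for PNO replicate 1 and 0.27 for SAL replicate 6. With each pup left out in turn the log2 fold change stayed between -0.36 and -0.26 in both comparisons, with adjusted p-values from 0.259 to 0.718 against SAL and from 0.0971 to 0.250 against PNO. The striatal markers went the other way from this gene, with 8 of 8 higher in IUO than in either other group and 0 called. With their score as a covariate the log2 fold change was -0.25 against SAL and -0.24 against PNO (unadjusted p = 0.00943 and 0.0141), and with the myelin score it was -0.34 and -0.38.

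*Abhd12* (ENSRNOG00000036934), whose loss in humans causes the neurodegenerative disorder PHARC, ran from 141 to 188 CPM in SAL (median 175), from 164 to 215 in PNO (median 175) and from 150 to 175 in IUO (median 164). All 6 IUO pups were below the SAL and PNO medians, and none was below the lowest SAL pup. The highest IUO pup, at 174.8 CPM, was only just below these medians (175.3 in SAL and 175.2 in PNO). The log2 fold change was -0.18 for IUO versus PNO (standard error 0.08, unadjusted p = 0.0354, adjusted p = 0.295), -0.07 for IUO versus SAL (adjusted p = 0.974) and 0.10 for PNO versus SAL (adjusted p = 0.912). Of the myelin markers, 6 of 6 were also lower in IUO than in PNO (unadjusted p-values from edgeR all under 0.05) and 0 were called. With their score as a covariate the IUO versus PNO value was -0.07 (unadjusted p = 0.440). The mean score was itself 9.23 in PNO and 7.99 in IUO, so that myelin score and exposure cannot be told apart here.

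*Faah* (ENSRNOG00000011019) did not separate the groups, with 12.5 ± 2.98 CPM (SD, n = 6) in SAL, 12.8 ± 2.57 in PNO and 12.2 ± 3.11 in IUO. Its log2 fold changes were 0.04 for PNO versus SAL, -0.04 for IUO versus SAL and -0.08 for IUO versus PNO, with adjusted p-values of 0.980, 0.996 and 0.870. The intervals reached from -0.48 to 0.44. With the myelin score as a covariate these values were 0.18, -0.19 and -0.37, and with the striatal score the IUO values were 0.14 relative to SAL and 0.14 relative to PNO. Its expected counts were not whole numbers in any pup, as for *Cnrip1*, and those of *Abhd12* were whole in 1 of 18 pups, so that part of the reads of these 3 genes also matched elsewhere.

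**Figure D3:**
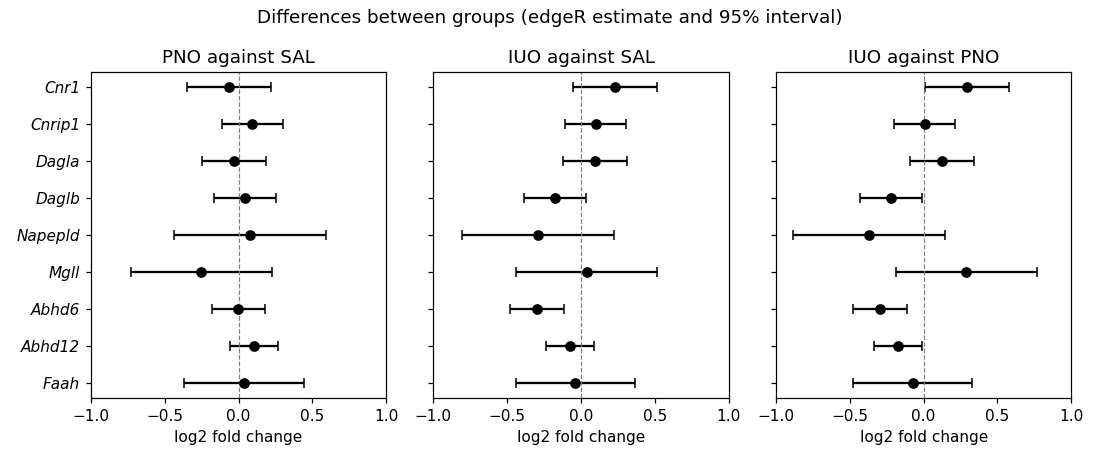
Log2 fold change of each member in the 3 comparisons (point) with its 95% interval (bar) from edgeR. The intervals of *Abhd6* in both comparisons with IUO lie below 0, and those of *Mgll* and *Napepld* are the widest.

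Over the 9 members, the median log2 fold change was 0.04 for PNO versus SAL, -0.04 for IUO versus SAL and -0.08 for IUO versus PNO, beside 0.0033, -0.0073 and -0.00053 over all genes tested. The number of higher and lower members was 5 and 4, 4 and 5, and 4 and 5. The most extreme end of any member's 95% interval was a fold of 1.66 for PNO versus SAL, 1.75 for IUO versus SAL and 1.85 for IUO versus PNO. That end belonged to *Mgll* in the first comparison and to *Napepld* in the others.

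A list of 24 other genes of the pathway was examined in the same fits, and 20 passed the filter on low counts. *Gpr55*, *Gpr18*, *Gdpd3* and *Ces1d* did not, with medians of 1 to 2 expected counts per pup. No gene of this list was called in any comparison, and the number with an unadjusted p-value under 0.05 was 4, 3 and 2 of 20 for PNO versus SAL, IUO versus SAL and IUO versus PNO, beside 4.5%, 6.88% and 15.3% of all genes. The median log2 fold change of the list was -0.03, -0.04 and -0.00043.

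Among receptors of the list, *Cnr2*, the CB2 receptor gene found mainly in immune cells, was near the lower limit of the data with 0.964 ± 0.223 CPM (SD, n = 6) in SAL, 1.03 ± 0.343 in PNO and 1.40 ± 0.388 in IUO. Its log2 fold change for IUO versus SAL was 0.54 (standard error 0.23, unadjusted p = 0.0337, adjusted p = 0.677 from edgeR). *Trpv1*, a cation channel that anandamide can open, had 2.04 ± 0.633 CPM in SAL, 1.49 ± 0.337 in PNO and 1.48 ± 0.292 in IUO. Its log2 fold change was -0.46 in both comparisons with SAL (unadjusted p = 0.0490 for PNO and 0.0479 for IUO, adjusted p = 0.912 and 0.715), which share the SAL pups. *Pparg*, a nuclear receptor of lipid ligands, was at 0.615 ± 0.237 CPM in SAL and 0.374 ± 0.130 in PNO (unadjusted p = 0.0392, adjusted p = 0.912).

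Of the synthesis genes, *Abhd4*, a hydrolase in an alternative route to anandamide, had 93.7 ± 27.4 CPM in SAL and 74.7 ± 9.63 in IUO, a log2 fold change of -0.33 (unadjusted p = 0.0480, adjusted p = 0.715). *Inpp5d*, which encodes a phosphatase of blood and microglial cells, had 23.3 ± 3.43 CPM in PNO against 18.3 ± 2.07 in SAL (log2 fold change 0.35, unadjusted p = 0.00206, adjusted p = 0.912) and 19.6 ± 1.53 in IUO (log2 fold change -0.25 against PNO, unadjusted p = 0.0202, adjusted p = 0.243). *Plcb2*, a phospholipase C that supplies diacylglycerol, was at 1.95 ± 0.566 CPM in PNO and 2.66 ± 0.430 in SAL (unadjusted p = 0.0399, adjusted p = 0.912). The neuronal *Plcb1* and *Plcb4*, which were far more abundant in TPM (means of 41.9 and 14.5 over all pups, against 1.01 for *Plcb2*), had adjusted p-values of 0.684 or more.

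*Nceh1*, a serine hydrolase of neutral lipids, had 113 CPM in IUO (range 102 to 121) and 129 ± 6.72 (SD, n = 6) in PNO. The log2 fold change was -0.19 (standard error 0.05, unadjusted p = 0.00193, adjusted p = 0.122). The SAL pups had a mean between these, at 120 ± 5.16 CPM. The 6 myelin markers were lower in the same comparison (median log2 fold change -1.37), and their part in *Nceh1* was not tested. *Ptgs2*, the cyclooxygenase that oxidises 2-AG and anandamide and responds to neuronal activity, had 9.97 CPM in SAL, 10.3 in PNO and 8.81 in IUO on average (adjusted p = 0.688 or more). Of the fatty acid-binding proteins, which carry anandamide inside cells, *Fabp5* and *Fabp7* were the most abundant of the list, with mean levels over all pups of 536 and 425 TPM and adjusted p-values of 0.912 or more. *Fabp3*, at 139 TPM, was below *Gde1* at 212 TPM, and its adjusted p-values were 0.506 or more.

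The members were next compared with each other across pups. Log2 CPM was centred on the mean of each group, so that group differences do not enter, and Pearson's r was taken over the 18 pups. These values are descriptions, as all genes of a pup come from the same library and share its depth and tissue. Depth and the levels of striatal, myelin and choroid plexus markers differed between pups. Of the 36 pairs, 29 had an r above 0, and the median was 0.33. No such value was taken over pairs of other genes, so that these r cannot be called particular to the members.

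*Mgll* was most like its synthetic counterpart, with an r of 0.79 to *Dagla*, and next like the receptor (0.73 to *Cnr1*) and *Napepld* (0.71). *Cnr1* and *Dagla* had an r of 0.65. Other high values were those of *Cnrip1* with *Abhd6* (0.74) and with *Daglb* (0.65), and of *Daglb* with *Abhd12* (0.69). *Cnr1* and *Cnrip1*, whose products bind each other, had an r of 0.01. Among the 2-AG hydrolases, r was -0.47 between *Mgll* and *Abhd12*, 0.12 between *Mgll* and *Abhd6* and 0.27 between *Abhd6* and *Abhd12*.

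**Figure D4:**
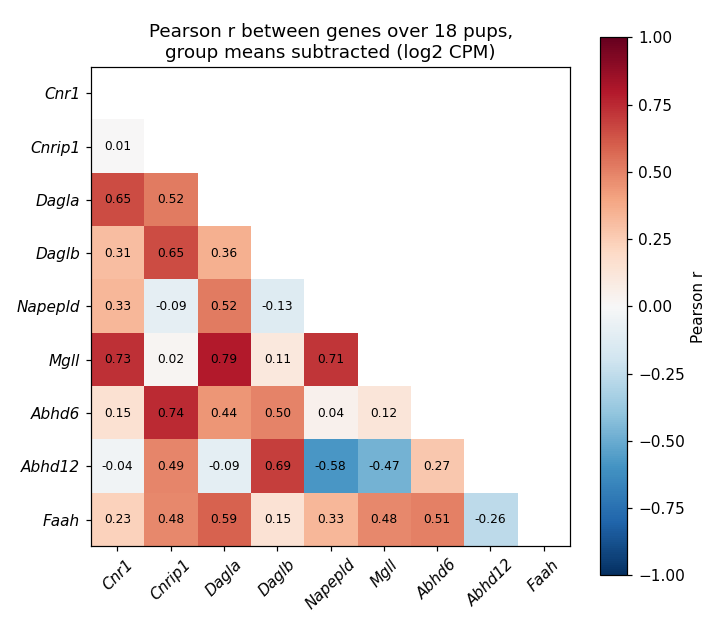
Pearson r of log2 CPM between each pair of members over 18 pups after subtracting group means, from -1 (blue) to 1 (red). Most values are positive, with the highest for *Dagla* and *Mgll*, and *Abhd12* runs against *Napepld* and *Mgll*.

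Among the 11603 other genes with a mean of at least 5 CPM, those most like *Cnr1* by the same measure included *Ddn* (0.87), *Rgs12* (0.87), *Ets1* (0.86) and *Nbn* (0.83). *Ddn* encodes a protein of the postsynaptic density and *Rgs12* a regulator of inhibitory G proteins. For *Mgll* the leading genes were *Camk2a*, the synaptic kinase of excitatory neurons (0.95), and *Mfhas1* (0.95). For *Dagla* they were *Pip5k1c* (0.95), which makes a phosphoinositide precursor of diacylglycerol, and *Git1* (0.94).

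The genes most like *Abhd12* were *Pgam1* (0.96) and *Aldoa* (0.96), which encode enzymes of glycolysis, and those most like *Abhd6* were *Tec* (0.85) and *Pdha1* (0.82), a subunit of pyruvate dehydrogenase. *Cnrip1* was most like *Rapgefl1* (0.96) and *Nppc* (0.95), *Daglb* like *Ctsa*, a lysosomal protease (0.92), and *Ralb* (0.91), *Faah* like the cortical transcription factor gene *Bhlhe22* (0.89) and *Gnaz* (0.86), and *Napepld* like, among others, *Urb2* (0.91).

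The relation of each member to the striatal and myelin marker scores (mean log2 CPM of each list) was then tested over the 18 pups. The test was by permutation, with adjustment over the 18 relations. Values were not centred on group means here. The mean scores differed between SAL, PNO and IUO (myelin 8.55, 9.23 and 7.99, striatal 5.24, 5.12 and 6.14). Group differences therefore enter the values and p-values over all pups. *Mgll* was lower where the myelin score was higher (Pearson's r -0.63, permutation p = 0.00528, adjusted 0.0317; Spearman's rho -0.60, permutation p = 0.00914, adjusted 0.0411). Without the 2 pups farthest from the median score r was -0.71, and within SAL, PNO and IUO it was -0.81, -0.19 and -0.84. *Abhd12* was higher where the myelin score was higher (r 0.64, permutation p = 0.00363, adjusted 0.0317; rho 0.74, permutation p = 0.000780, adjusted 0.0140). Its r was 0.66 without the 2 farthest pups, and 0.86, 0.12 and 0.51 within the groups. Neither relation was seen at this size within PNO.

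*Faah* was lower where the striatal score was higher (r -0.68, permutation p = 0.00212, adjusted 0.0317; rho -0.65, permutation p = 0.00424, adjusted 0.0382). Its r was -0.51 without the 2 farthest pups, and -0.55, -0.84 and -0.84 within SAL, PNO and IUO, the same sign in each group. For *Abhd6* and the striatal score r was -0.57 (permutation p = 0.0152, adjusted 0.0595) and rho -0.61 (permutation p = 0.00853, adjusted 0.0411), with -0.39 without the 2 farthest pups and -0.32, -0.68 and -0.44 within the groups. Of the 18 relations, 3 passed an adjusted p-value of 0.05 by both measures, and *Abhd6* passed by rho only. The share of all genes related to these scores was not computed, so that the count cannot be called particular to the members. For *Dagla* and the myelin score r was -0.56 (permutation p = 0.0165, adjusted 0.0595) and rho -0.56 (permutation p = 0.0184, adjusted 0.0664), with -0.65 without the 2 farthest pups and -0.53, -0.47 and -0.65 within SAL, PNO and IUO. For *Cnr1* and the striatal score r was 0.46 (permutation p = 0.0541, adjusted 0.162) and rho 0.33 (permutation p = 0.181, adjusted 0.396), with 0.66 without the 2 farthest pups and 0.34, 0.70 and -0.15 within SAL, PNO and IUO.

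**Figure D5:**
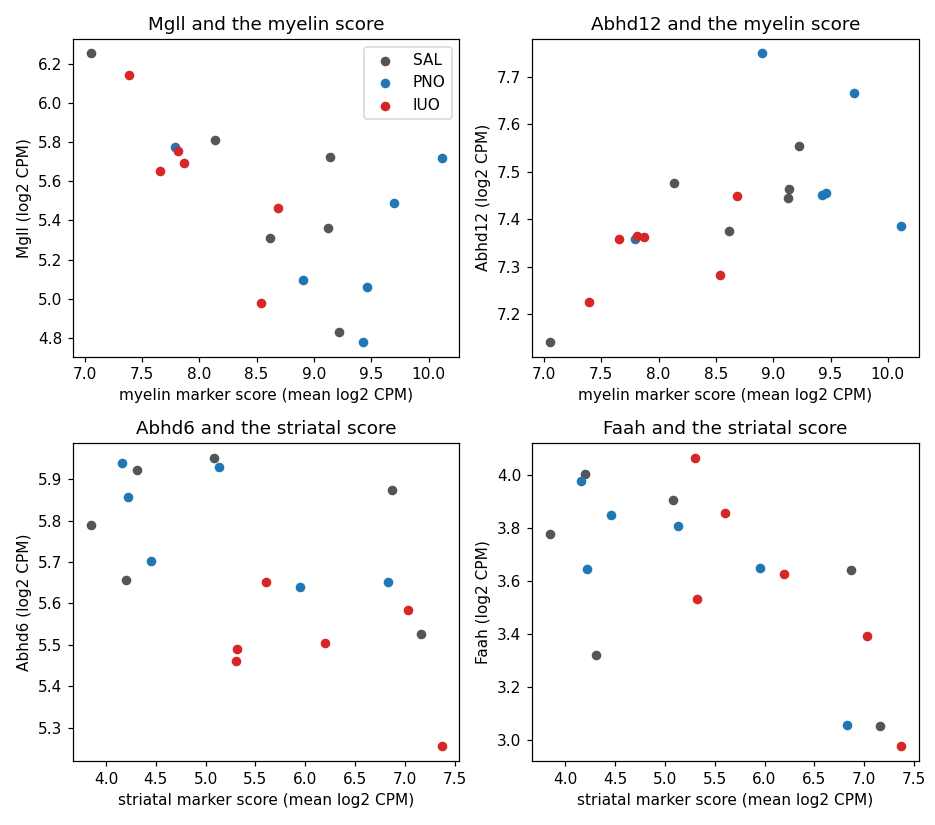
Log2 CPM of *Mgll* and *Abhd12* against the myelin score and of *Abhd6* and *Faah* against the striatal score (mean log2 CPM of the marker lists), 1 point per pup, coloured by group. *Mgll* falls and *Abhd12* rises with the myelin score, and *Faah* falls with the striatal score.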

How the data were processed

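RNA-seq of the PFC was available for 18 pups at P14 (SAL, PNO and IUO, n = 6 each), grouped by the sample titles. By the study's methods, TruSeq V2 libraries were sequenced as single reads on a shared flow cell. This kit does not mark strand, so that overlapping genes cannot be told apart. Each deposited table holds, for 32623 genes of a single pup, the expected count, which is not normalized and shares out reads that match several genes. The deposited TPM and FPKM values are scaled by the authors to transcript length and to library total. The aligner, quantifier and genome build are not given in the sources used here. Sequences are from RefSeq (GRCr8) and no coordinates of the files' build were used.

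After rounding, expected counts entered edgeR 4.0.16 (R 4.3.3; TMM, filterByExpr, glmQLFit and glmQLFTest, 1 model over 3 groups, two-sided). Standard errors are the log2 fold change divided by the square root of F, and intervals are 95%. Log2 CPM used a prior count of 2. Alternatives were RLE size factors, no normalization factors, no filter, limma 3.58.1 (voom, quality weights per pup), DESeq2 1.42.0, a fit to the 12 pups of a comparison, a block for the replicate number, the striatal or myelin score as covariate and leaving out each pup. Relations used 100000 permutations. TPM entered levels only, with FPKM as its alternative. The edgeR fit was tested on simulated counts with known changes placed in IUO. Named genes are the 9 members, those of the 24-gene list with an unadjusted p-value under 0.05 or a described role, and the 5 (*Cnr1*) or 2 (other members) most like genes. Of these most like genes, 2 are not reported here. Members and lists were chosen with earlier results of these data known. Marker lists were cortical excitatory neuron, interneuron, astrocyte, microglia, mature oligodendrocyte (myelin), oligodendrocyte precursor, endothelium, striatum and choroid plexus. No pair of pups of a group looked like 1 library deposited again (chi-square per degree of freedom from 11.1 to 186 in 45 pairs). Plots were drawn with matplotlib 3.10.9.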

Additional observations from a re-analysis of the deposited data

Results flagged for a closer look

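*Faah* in PNO replicate 3 was the only value of a member to stand apart from its group. Its log2 CPM was 3.06, and the nearest of the other 5 PNO pups had 3.65, a gap of 0.640 of the group's range against a critical value of 0.625 for 6 samples. The check covered 27 sets of 6 pups (9 genes in 3 groups), and about 1 in 20 such sets is marked when nothing stands apart. The striatal score of the same pup, 6.83, was the highest in PNO, where the others ran from 4.16 to 5.95. The part of the striatal markers in this value was not tested for a single pup. Without PNO replicate 3 the log2 fold change of *Faah* was 0.14 for PNO versus SAL and -0.17 for IUO versus PNO, neither past the threshold.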

How the results depend on the processing

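Of the 243 log2 fold changes of members recomputed under the 9 other settings, 227 kept their direction and their side of the threshold, 14 changed sign and 2 (*Abhd6* between IUO and PNO, with DESeq2 and limma-voom) passed the threshold. These 2 tools called 1 member each between IUO and PNO in place of 0. Every change of sign was in a value not past the threshold. With the myelin score as a covariate, the PNO versus SAL value became 0.0592 for *Dagla*, 0.0181 for *Mgll* and 0.0424 for *Abhd6*, the IUO versus SAL value -0.12 for *Mgll*, and the IUO versus PNO value -0.0605 for *Cnrip1*, -0.0400 for *Dagla* and -0.14 for *Mgll*. With the striatal score, *Faah* became 0.14 against SAL and 0.14 against PNO in IUO. Without normalization factors, the PNO versus SAL value became -0.0076 for *Daglb* and -0.0061 for *Faah*. With limma-voom it became 0.0432 for *Abhd6* and -0.0030 for *Faah*. The replicate block gave 0.0020 for *Abhd6* in PNO versus SAL and called 0 members. The cause was not tested.

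With each pup left out in turn, 0 members were called in any fit, and the values that changed sign ran, for PNO versus SAL, from -0.14 to 0.0111 for *Cnr1*, -0.0746 to 0.0334 for *Dagla*, -0.0388 to 0.0841 for *Daglb*, -0.11 to 0.29 for *Napepld*, -0.0531 to 0.0309 for *Abhd6* and -0.0611 to 0.14 for *Faah*, for IUO versus SAL from -0.0903 to 0.20 for *Mgll* and -0.16 to 0.0533 for *Faah*, and for IUO versus PNO from -0.0512 to 0.0490 for *Cnrip1* and -0.19 to 0.0173 for *Faah*. Some small values kept their sign but moved by over 1.5 times. *Cnrip1* ran from 0.0319 (without SAL replicate 1) to 0.160 (without SAL replicate 5) for PNO versus SAL and from 0.0318 to 0.167 (without the same pups) for IUO versus SAL. *Dagla* ran from 0.0285 (without IUO replicate 5) to 0.156 (without SAL replicate 5) for IUO versus SAL, and was 0.0596 for IUO versus PNO without IUO replicate 5. *Abhd12* ran from -0.129 (without SAL replicate 6) to -0.0428 (without SAL replicate 4) for IUO versus SAL, where the myelin score gave -0.0216, and was 0.0502 for PNO versus SAL without SAL replicate 6 and 0.0530 without PNO replicate 2.

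Over all genes, DESeq2 called 1 gene for PNO and SAL, 49 for IUO and SAL and 436 for IUO and PNO, and limma-voom called 43 and 2028 in the last 2. Between IUO and PNO, where 10 genes were called, the count was 19 without normalization factors, 73 with only the 12 pups, 6 with the replicate block, 65 with the striatal score and 0 with the myelin score. Leaving out a pup gave 1 to 95, with 95 without PNO replicate 5, 17 without PNO replicate 3 or IUO replicate 1, 8 without PNO replicate 1, and 1 to 4 without PNO replicates 2, 4 or 6 or IUO replicates 2 to 6. Between IUO and SAL it gave 0 to 1 (1 without SAL replicate 2). Same-numbered pups were not paired by the labels. Their deviations from group means correlated above 0.1 in 4 of 6 pairs of PNO and SAL (mean 0.23), 1 of 6 of IUO and SAL (mean -0.03) and 3 of 6 of IUO and PNO (mean 0.06), and the number is not treated as a pairing. With limma-voom *Napepld* was -0.10 for IUO versus SAL and -0.21 for IUO versus PNO, and the former was -0.17 with the striatal score. The order of the members in SAL was the same with FPKM. Depth limits *Napepld* most.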
